A study of Mus musculus with 12 samples.

Results

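The genes described here encode the proteins of the cytosolic ribosome. They were taken by symbol from a table of 21253 mouse genes: every symbol made of Rpl or Rps and a number, with the suffixes a or x, and the stalk genes Rplp0, Rplp1 and Rplp2. The rule found 74 genes, 29 of the small subunit (Rps) and 45 of the large subunit (Rpl and Rplp), and used no measured value. Levels are in FPKM, fragments per transcript length and per mapped fragments of the library, from RNA sequencing of 12 libraries in 4 groups. Embryonic stem cells (mESC) grown in 15% serum with LIF came from a WT line, E14 (n = 2), and a line labelled EED-/- (n = 2). Both lines were also turned into anterior neural progenitors (AntNPC) over 5 days without serum or LIF, with 10 ng/ml of the growth factor bFgf for 3 days and, from day 2, 5 uM of Xav939, which blocks WNT signalling (n = 4 for each genotype). Each genotype is 1 line, so other differences between the lines cannot be told apart from the genotype. No source used here says whether replicates are independent cultures. The p-values therefore reflect library-to-library spread, which may be technical.

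Polycomb repressive complex 2, which needs EED to bind and spread its own mark, methylates lysine 27 of histone H3 on silent developmental genes. Ribosomal protein genes are housekeeping genes: each ribosome holds nearly all of these proteins in single copy, and their mRNAs are among the most abundant in growing cells. Their transcripts start with a run of pyrimidines, the TOP motif, through which the mTOR pathway controls their translation. Their short exons and many processed pseudogenes make their reads hard to assign. Stem cells have short cell cycles and need many ribosomes, and several of these genes cause anaemia or skeletal and pigment defects when 1 copy is lost.

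Eed itself was at 66.2 and 163 FPKM in the WT stem cells and at 644 and 376 in those labelled EED-/-. In progenitors it was at 42.0 to 63.4 FPKM for WT and 171 to 202 for the label EED-/-. The transcript was thus higher in the libraries labelled EED-/-, and its level does not check that label. Every comparison of genotypes below rests on the labels alone. Summed pluripotency markers were at 2492 to 9559 FPKM in mESC, 33.7 to 66.2 FPKM in WT progenitors and 239 to 325 FPKM in progenitors labelled EED-/-. Summed neural progenitor markers were at 13.0 to 39.1, 262 to 435 and 91.7 to 121 FPKM in the same order. Otx2 was the largest part in WT progenitors, at 134 to 208 FPKM against 17.6 to 37.6 for the label EED-/-. Not every marker followed the sum. Nes was at 14.9 to 23.4 FPKM against 19.3 to 23.2. Six3 was at 5.09 to 5.31 FPKM against 12.9 to 14.1 in replicates 2 to 4, and at 25.7 against 12.8 in replicate 1. Trophoblast markers summed to 6.76 to 15.1 FPKM in WT libraries and 126 to 893 in libraries labelled EED-/-. Krt8 made up most of this sum, at 121 to 867 FPKM in libraries labelled EED-/-. In the same libraries Cdx2 was at 0.132 to 1.80 FPKM and Elf5 at 0.0536 to 1.24. Mesoderm markers summed to 0.651 to 2.37 FPKM in WT libraries against 16.0 to 171, and endoderm markers to 0.518 to 2.44 against 18.4 to 36.4. In AntNPC, fibroblast markers summed to 44.5 to 81.0 FPKM against 130 to 264, and neuron markers to 44.0 to 53.0 against 62.6 to 89.8. In mESC the fibroblast sums overlapped and the neuron sums were lower for the label EED-/-. Whether other cell types were present, and their part in the results, was not tested.

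The ribosomal protein genes had median levels over the 12 libraries from 4.46 to 2981 FPKM, with 1304 FPKM for the middle of the 74. The highest medians belonged to Rplp1 (2981 FPKM), a stalk protein that recruits elongation factors, Rps27 (2962), Rpl32 (2947), Rps12 (2926) and Rpl41 (2556), which encodes a very small basic peptide of the large subunit. The 5 leading genes of each library held 10.7% to 15.3% of the summed ribosomal protein FPKM. Rps12 ranked highest in all 4 WT AntNPC libraries and Rpl32 in all 4 AntNPC libraries labelled EED-/-. The lowest medians were those of Rpl24 (4.46 FPKM), Rpl29 (278) and Rpl37 (538). The product of Rpl24 bridges the subunits of the ribosome, and a mutant allele gives the Belly spot and tail mouse. Its values of 2.13 to 8.08 FPKM lie far under those of the other 73 genes. The principal transcript of Rpl24 in GENCODE M21 is 4920 nt long against a median of 705 nt, and the sources used here do not name the transcript to which its FPKM was scaled. For WT AntNPC, the authors' deposited table gives Rpl24 a mean read count of 922 and Rpl38 one of 15319. Rpl13a showed a mismatch between FPKM and read count. Its FPKM reached 10353, the highest value of any of the 74 genes in any library. The authors' deposited table gives it a mean read count of 2413 in WT AntNPC. Divided by the mean FPKM of WT AntNPC and the GENCODE transcript length, the mean read counts of the authors' deposited table come to 41.4 reads per FPKM and kilobase for the median gene, and to less than that value divided by 3 for 5 genes, Rpl13a, Rpl23a, Rpl35, Rps20 and Rps24. Rpl24 came to 39.6 on this measure, near the median gene. The measure depends on the transcript length used, which for Rps20 was 3706 nt. The mean read count of Rps20 in WT AntNPC was 50345 in the authors' deposited table, unlike the 2413 of Rpl13a. Differences in level between genes are therefore not read as differences in mRNA number.

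The start regions of a few of these genes are shown so that their starts can be compared. RefSeq windows on GRCm38.p6, from 250 bases before to 50 after the start, matched 54 of the 74 genes by symbol; Rpl32 is among the genes with no window here. Each stretch runs 5′ to 3′ from 40 bases before the RefSeq start through the first 20 of the transcript. The letters CTTTCC (a pyrimidine run as in a TOP start) and CCGGAA on either strand (an ETS factor core) are in capitals, and in Rps27 both overlap. They are Rpl34 at chr3:130730379-130730438 on the minus strand, Rps27 at chr3:90213629-90213688 on the minus strand, Rpl28 at chr7:4792925-4792984 on the plus strand, Rpl13a at chr7:45128726-45128785 on the minus strand and Rpl38 at chr11:114668540-114668599 on the plus strand.
Rpl34: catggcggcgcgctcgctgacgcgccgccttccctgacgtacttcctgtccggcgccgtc
Rps27: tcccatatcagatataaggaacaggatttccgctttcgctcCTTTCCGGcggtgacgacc
Rpl28: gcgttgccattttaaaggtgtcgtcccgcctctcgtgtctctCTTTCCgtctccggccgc
Rpl13a: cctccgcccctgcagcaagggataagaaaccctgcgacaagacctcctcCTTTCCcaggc
Rpl38: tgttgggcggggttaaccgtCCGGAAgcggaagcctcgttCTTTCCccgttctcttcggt
Rpl38, needed for the patterning of the axial skeleton in the mouse, holds both motifs, and Rpl34 holds neither in this stretch. Of 64 windows of these genes, 39.1% hold CTTTCC on the sense strand against 14.1% of 32787 other windows of 300 bases. CCGGAA on either strand was in 48.4% against 14.8%, GGGCGG on either strand in 59.4% against 35.6%, and TATAAA on the sense strand in 7.81% against 8.32%. A C followed by 4 or more pyrimidines, beginning within 5 bases of the start, was in 45.3% against 18.3%. A match describes the letters and shows no binding.

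The summed level of the 74 genes differed widely between libraries of 1 group. In WT mESC they held 16.3% and 33.9% of the summed FPKM of replicates 1 and 2. In mESC labelled EED-/- they held 26.3% and 10.7%. WT AntNPC gave 14.0%, 19.9%, 23.2% and 21.6% in replicates 1 to 4, and AntNPC labelled EED-/- gave 11.2%, 19.9%, 19.9% and 19.1%. The 4 lowest within their groups were WT mESC replicate 1, mESC labelled EED-/- replicate 2, and replicate 1 of each AntNPC group. In bulk RNA, fewer cells of a type and less RNA per cell cannot be told apart.

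The same 4 libraries stood apart in some rows of ribosomal protein pseudogenes, of which the table lists 22. Rps2-ps6, a copy of Rps2, gave 85.4, 88.0, 77.6 and 76.1 FPKM in these 4 libraries and 0.0890 to 0.633 in the other 8. Rps12-ps3 gave 35.1 to 90.0 FPKM in the 4 and 0.840 to 1.96 in the 8, and Rpl10-ps3 gave 71.5 to 109 against 1.34 to 16.7. The 2 sets of libraries do not overlap in any of these 3 rows, nor in the share held by the 74 genes, which was 10.7% to 16.3% in the 4 and 19.1% to 33.9% in the 8. The parent gene Rps2, part of the mRNA entry channel, ran from 833 to 1204 FPKM in the 4 and from 1669 to 3790 in the 8. Eef1a1, an elongation factor with a TOP motif that is no ribosomal protein, ran from 2027 to 2904 in the 4 and from 5718 to 8304 in the 8. The pseudogene rows were chosen after their values were seen. Most of the 22 rows did not part the 2 sets: Rpsa-ps10 gave 32.3 to 71.1 FPKM in the 4 and 29.6 to 59.5 in the 8. Rps2-ps10, also named for Rps2, gave 104 to 127 FPKM in the 4 and 119 to 382 in the 8. The part of read assignment in the shares was not tested. The labels name no batch. The submitters' processing notes name DESeq2 for the 8 libraries numbered 2 or higher and not for the 4 numbered 1, which matches the split except in mESC labelled EED-/-, where replicate 2, not replicate 1, belongs to the 4.

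**Figure D1:**
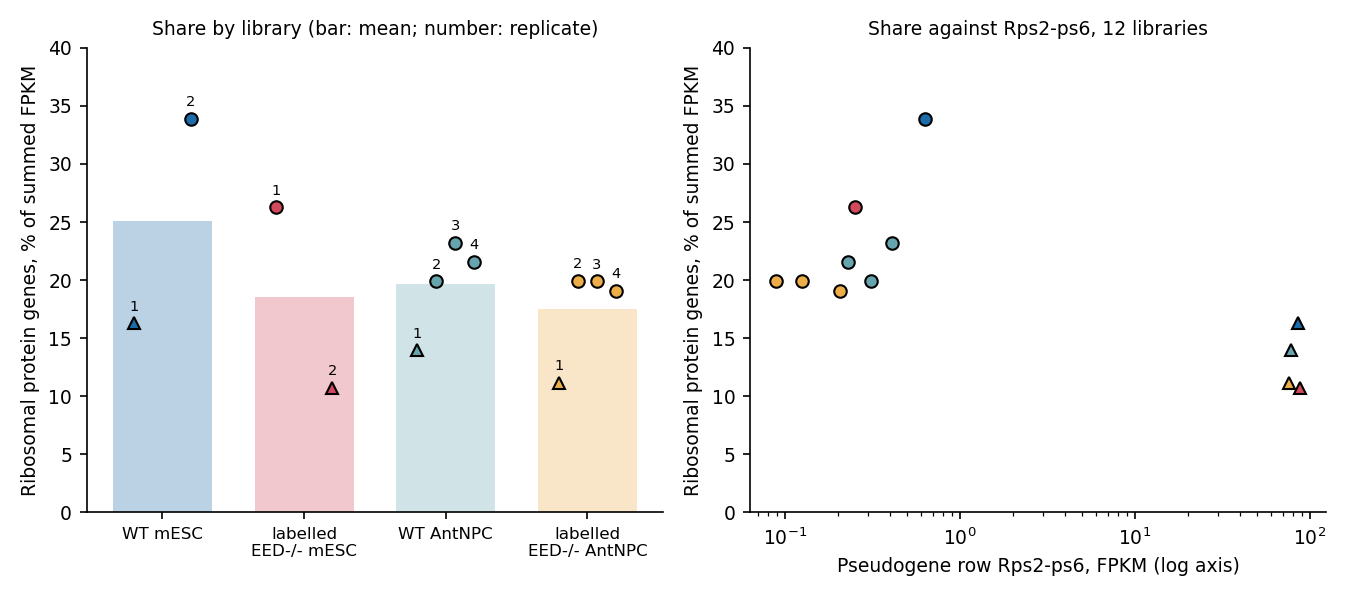
Left, share of summed FPKM (percent) held by the 74 genes in each of 12 libraries, with bars at group means and numbers for replicates; right, the same share against the FPKM of the pseudogene row Rps2-ps6 on a log axis. Triangles are the 4 libraries with Rps2-ps6 at 76.1 FPKM or more, and all 4 lie at 16.3% or below, while the other 8 (circles) lie at 19.1% or above; colours are the groups of the left panel.

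Genotypes were also compared among libraries of like Rps2-ps6 level. Among the 4, the share was 16.3% in WT mESC against 10.7% in mESC labelled EED-/-, and 14.0% against 11.2% in AntNPC. Among the 8, it was 33.9% against 26.3% in mESC, and 19.9% to 23.2% against 19.1% to 19.9% in AntNPC. The value labelled EED-/- was the lower in each of the 3 single pairs, by ratios of 0.658, 0.776 and 0.799, while in AntNPC replicates 2 to 4 the highest value labelled EED-/- was level with the lowest WT value. The median gene was lower in the library labelled EED-/- by 0.59, 0.50 and 0.37 on the log2 scale in these pairs, with 69, 70 and 68 of 73 genes lower. Between cell types of WT, mESC had the higher share in both sets, and for libraries labelled EED-/- it was 10.7% in mESC against 11.2% in AntNPC in the 4 and 26.3% against 19.1% to 19.9% in the 8. Single libraries carry no test.

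The difference between libraries of 1 group ran through nearly all of the genes. From WT mESC replicate 1 to replicate 2 the median ratio was 1.87 on the log2(FPKM + 1) scale, and 72 of the 73 genes without a 0 were higher in replicate 2. From mESC labelled EED-/- replicate 2 to replicate 1 the median was 1.96, again with 72 of 73 higher. In AntNPC the mean of replicates 2 to 4 lay above replicate 1 by a median of 0.75 in WT and 0.97 in libraries labelled EED-/-, with 70 of 73 higher in each. Rpl24 went the other way in both mESC pairs, at -1.31 and -1.54. The step was larger for short transcripts: in WT mESC it was 2.13 for the 27 genes under 600 nt and 1.77 for the 17 of 1000 nt or more. In mESC labelled EED-/- it was 2.14 and 1.88. Rps29, a small zinc-binding protein of the 40S, had the largest step in 3 of the 4 groups, reaching 2.86 in mESC labelled EED-/-. Spearman's correlation between length and step over the 73 genes was -0.54 and -0.46 in the mESC groups and -0.34 and -0.39 in AntNPC, a description over genes that share their libraries. Among genes outside the 74 with a mean above 5 FPKM, 183 under 600 nt had median steps of 1.08 (WT) and 1.10 (labelled EED-/-) in mESC, and 8554 of 1000 nt or more had -0.16 and -0.11. Short and long genes thus lay further apart outside the 74 than within them, and the long ones lay below 0.

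**Figure D2:**
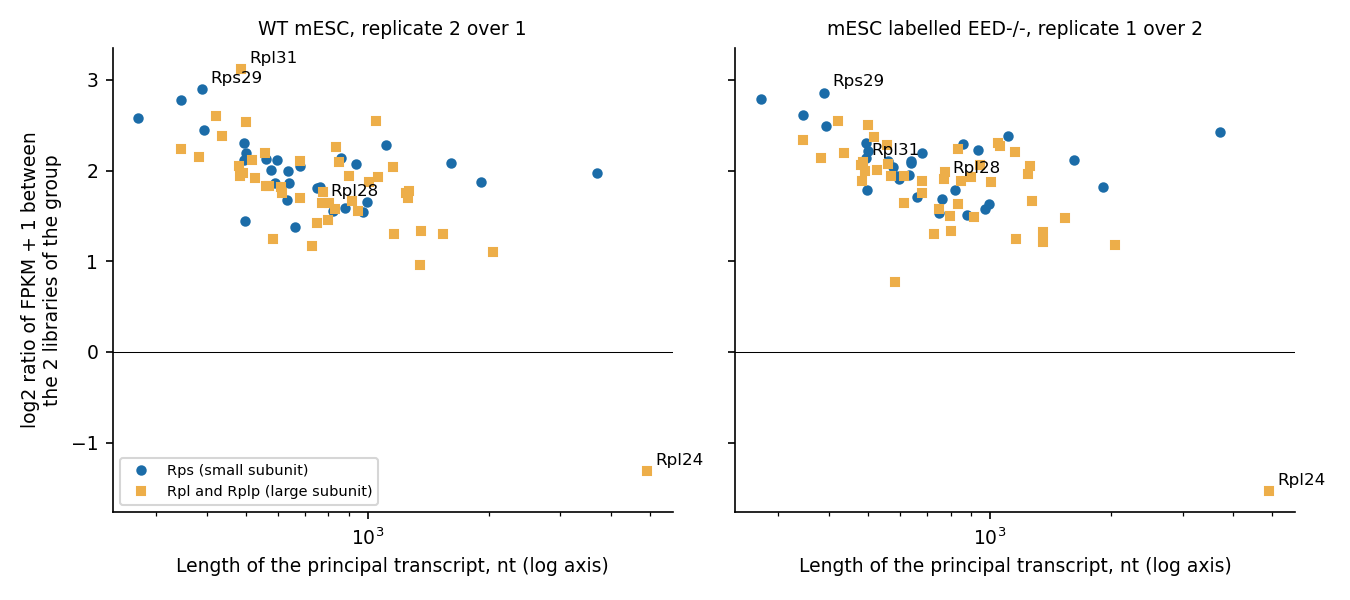
Log2 ratio of FPKM + 1 between the 2 libraries of each mESC group for 73 genes (vertical) against the length of the principal transcript in nt on a log axis (horizontal), small subunit as circles and large subunit as squares. Nearly all points lie above 0, around medians of 1.87 and 1.96, with Rpl24 at -1.31 and -1.54.

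Relative levels were much steadier than absolute ones. Each gene was set against the median of the 73 genes without a 0 in its library, on the log2 scale, which removes the shared step. The SD of a gene's relative level over the 12 libraries had a median of 0.16, and 49 of the 74 genes stayed under 0.2. Rps13, with an SD of 0.061, and Rps25 and Rpl9, at 0.066 each, were the steadiest. Apart from Rpl22 (2.71), whose spread comes from a single 0, the widest were Rpl24 (1.12), Rpl28 (0.56), Rps27 (0.48) and Rps29 (0.45). Across the 73 genes, Pearson's r of log2 levels was 0.957 to 0.992 between pairs of the 4 libraries, 0.962 to 0.999 between pairs of the 8, and 0.922 to 0.961 between the 2 kinds. Genes are not replicates, and these correlations only describe how alike the profiles were.

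**Figure D3:**
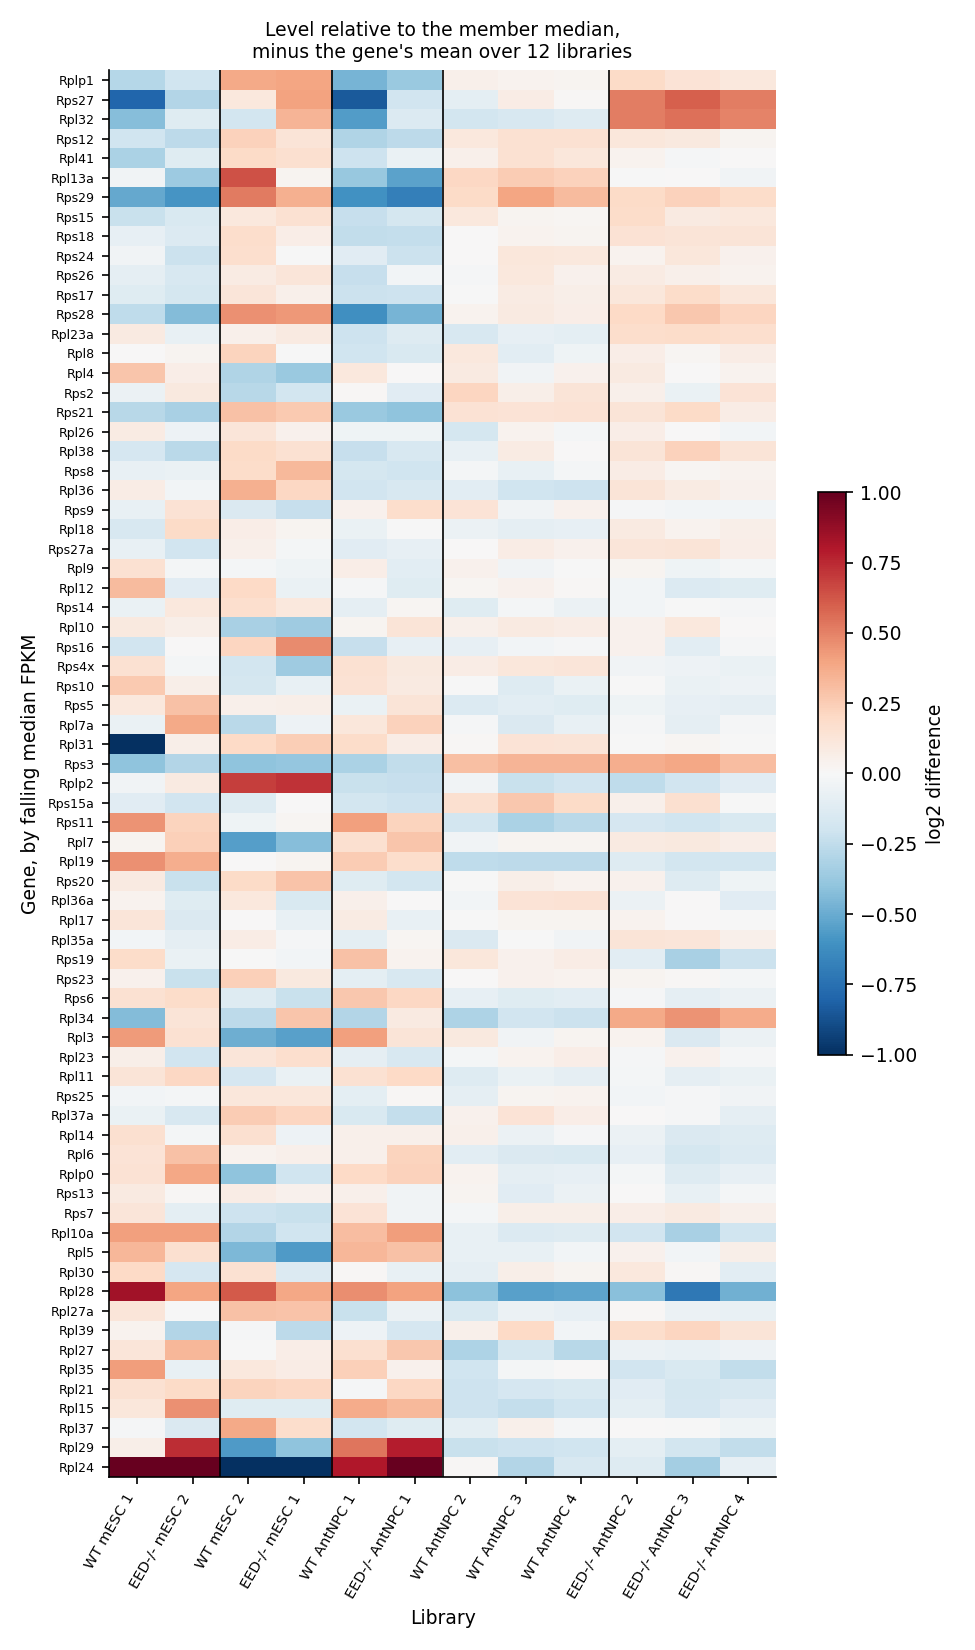
Relative level of 72 genes (rows, by falling median FPKM) in 12 libraries (columns), as log2(FPKM + 1) minus the library's median of the 73 genes without a 0 and minus the gene's own mean, with red for higher and blue for lower and colours saturated at 1. Vertical lines part the 4 libraries of high Rps2-ps6 from the other 8 within each cell type; rows such as Rps27, Rpl32 and Rpl34 differ within them between genotypes.

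Rpl22, a protein of the 60S surface, was listed at 0 FPKM in AntNPC labelled EED-/- replicate 1. In the other 11 libraries it ran from 732 to 3335 FPKM, and the other AntNPC replicates labelled EED-/- gave 1352, 1445 and 1279. It was the only one of the 74 with a value of 0. The fit took this 0 as a value, which gave a fitted difference of -2.34 ± 1.97 (SE) in AntNPC on the log2(FPKM + 1) scale. Without replicate 1 of both AntNPC groups the relative difference turned to 0.30. Its authors' mean read counts in the authors' deposited table were 26404 for WT and 22829 for AntNPC labelled EED-/-. No source used here says which libraries these means cover, so they do not show whether replicate 1 held reads of Rpl22.

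The first comparison asks how AntNPC labelled EED-/- differ from WT AntNPC. None of the 74 genes passed the test, limma on log2(FPKM + 1) with Benjamini-Hochberg adjustment over 13678 genes, and 0 had an unadjusted p under 0.05. Over all genes tested, 18.3% rose and 7.75% fell. The median log2 difference of the 74 was -0.22 against 0.05 for all genes, and 70 of 74 were negative. This median moved from -0.41 without WT replicate 1 to -0.01 without replicate 1 labelled EED-/-. With AntNPC replicates 2 to 4 alone, 4 genes rose and 22 fell, beside 40.3% and 30.2% of all genes, with a median of -0.17. When the 8 AntNPC libraries were fitted with the replicate number as a block, 3 rose and 23 fell, beside 33.3% and 22.3% of all genes. The count of 22 that fell is near the background share of its fit, and the count of 23 lies above the share of its own fit. The counts that rose are far under theirs.

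Rps19, of the head of the small subunit and the gene most often mutated in Diamond-Blackfan anaemia, had the lowest difference in AntNPC after Rpl22; like the other genes named in this comparison apart from Rpl32 and Rpl22, it was singled out after its values were seen. It gave 1105, 1450, 1650 and 1577 FPKM in WT AntNPC and 707, 1194, 1072 and 1074 in AntNPC labelled EED-/-. The groups overlap through the replicate 1 libraries, while replicates 2 to 4 do not. The difference was -0.52 ± 0.47 (SE, n = 4 and 4, limma adjusted p = 0.493), and -0.49 with replicates 2 to 4 alone (limma adjusted p = 0.00107). Rpl13a followed at -0.46 ± 0.70 (limma adjusted p = 0.713), and -0.43 with replicates 2 to 4 alone (limma adjusted p = 0.00772).

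Rpl32, Rpl34 and Rps27 were among the few positive genes in AntNPC. They are the 3 members that lie on chromosomes 3 and 6. Rpl32 lies at chr6:115805505-115808747, Rpl34 at chr3:130726831-130730398 and Rps27 at chr3:90212522-90213651, all on the minus strand of GRCm38. Other genes of these chromosomes also had a positive median: with a mean above 5 FPKM, 459 genes on chromosome 3 had a median log2 difference of 0.51 and 458 on chromosome 6 had 0.57, while 512 on chromosome 8 had 0.40 and 7969 on the remaining chromosomes -0.06. The chromosomes were singled out after the values were seen, and a change in their copy number was not tested.

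Rpl32, a 60S protein, gave 1282, 2475, 3023 and 2871 FPKM in WT AntNPC and 1323, 3865, 4120 and 3706 in AntNPC labelled EED-/-. Rpl34, also of the large subunit, gave 614, 904, 1179 and 1078 against 617, 1404, 1532 and 1355. In both genes replicate 1 differed little between genotypes, and replicates 2 to 4 did not overlap. Rps27, a zinc-finger protein of the small subunit, gave 935, 2321, 3128 and 2797 FPKM against 1125, 3413, 3762 and 3307. Here too the groups touch only through replicate 1. Differences on the FPKM scale were 0.38, 0.34 and 0.33 for Rpl32, Rpl34 and Rps27, and none of the 3 passed, with limma adjusted p of 0.763, 0.740 and 0.824. With replicates 2 to 4 alone all 3 rose, by 0.49, 0.45 and 0.35 (limma adjusted p = 0.00498, 0.00764 and 0.0406).

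Relative to the other ribosomal protein genes, Rpl32 was the single gene of the 74 that rose in AntNPC labelled EED-/-, by 0.62 ± 0.16 (SE, n = 4 and 4, limma adjusted p = 0.0376); 1.93% of all genes rose on this scale and 0.227% fell. This call was lost when any of the 8 AntNPC libraries but replicate 1 labelled EED-/- was left out. Rpl34 was at 0.58 ± 0.17 (limma adjusted p = 0.0872) and Rps27 at 0.57 ± 0.22 (0.241). The lowest of the genes without a 0 was Rps19 at -0.29. The relative levels of Rpl34 did not overlap between genotypes, at -0.59 to -0.47 in WT and -0.19 to 0.17 in libraries labelled EED-/-. Rpl18 and Rpl35a were also among the genes that were higher without overlap, 4 of 74 beside 18.2% of all genes tested, and Rps19 and Rpl12 were lower without overlap, 2 of 74 beside 1.84%. With the replicate block on the 8 AntNPC libraries, 8 genes rose and 2 fell relative to the others, beside 47.9% and 7.73% of all genes. Rpl32, Rpl34 and Rps27 were among those that rose. On the relative scale the median of the ribosomal protein genes is held at 0 by construction. Their shared shift is taken from every gene, so other genes move by it with the sign reversed. Shares of all genes on this scale, here and below, are thus no background for the 74.

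In mESC, which share no library with AntNPC but come from the same lines, Rpl32, Rpl34 and Rps27 were again on the high side relative to the other genes. They did not pass the test. Genes outside the 74 with a mean above 5 FPKM also had higher medians on their chromosomes in mESC. On the FPKM scale these were 0.62 on chromosome 3, 0.78 on chromosome 6 and 0.66 on chromosome 8, against 0.17 on the rest. On the FPKM scale none of the 74 passed limma's test between genotypes, beside 20% of all genes that rose and 2.73% that fell. At an unadjusted p under 0.05 there were 0 of the 74. The median was -0.55 against 0.29 for all genes, but each group holds 1 library with high and 1 with low Rps2-ps6. The median became 0.45 without WT replicate 2, 0.43 without replicate 2 labelled EED-/-, -1.49 without WT replicate 1 and -1.53 without replicate 1 labelled EED-/-. Relative to the other genes none passed limma's test either, beside 0.695% and 0.0146% of all genes. At an unadjusted p under 0.05 there was 1 of the 74. Rpl34 was at 0.55 ± 0.24 (SE, n = 2 and 2, limma adjusted p = 0.445), Rpl32 at 0.42 ± 0.22 and Rps27 at 0.40 ± 0.31. The 2 pairs of like libraries gave 0.57 and 0.54 for Rpl34, 0.30 and 0.53 for Rpl32, and 0.50 and 0.29 for Rps27. Rpl31, at the exit tunnel and on chromosome 1, was at 0.58 ± 0.28, but its 2 pairs gave 1.11 and 0.05, and its level of 474 FPKM in WT mESC replicate 1 stands apart. Rpl24, at 0.47, and Rpl29, at 0.42, lie on chromosomes 16 and 9 and were as high. The interaction asks whether the genotype effect differs between AntNPC and mESC. It called none of the 74 in limma's test, beside 3.98% and 11.3% of all genes. The median of the 74 was 0.31 on the FPKM scale, and 0 had an unadjusted p under 0.05.

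**Figure D4:**
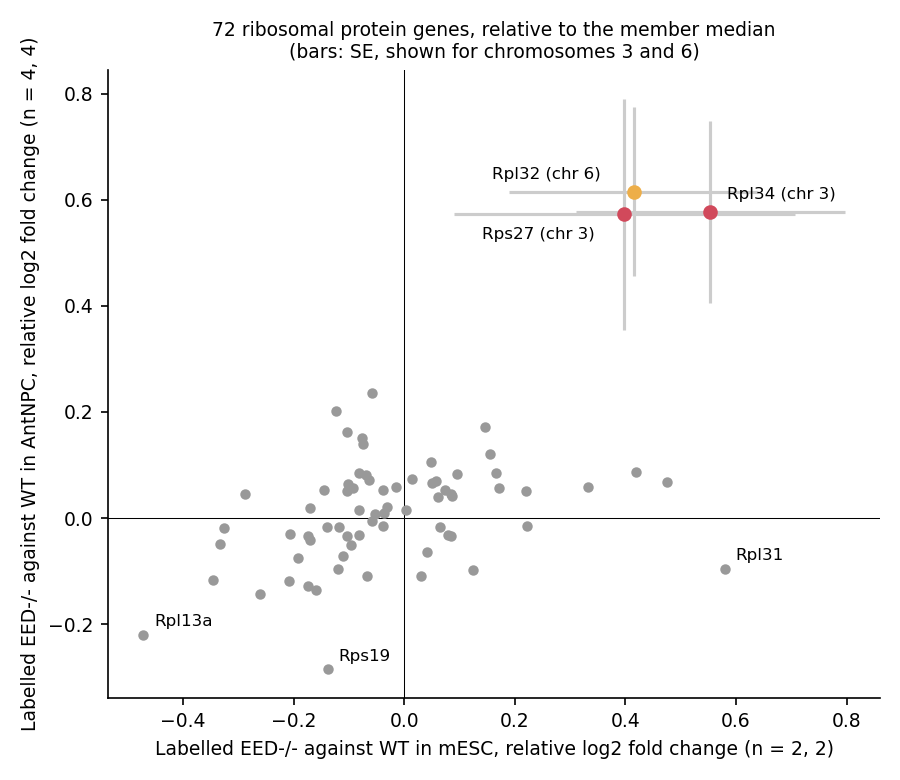
Relative log2 difference between libraries labelled EED-/- and WT in mESC (horizontal, n = 2 and 2) and in AntNPC (vertical, n = 4 and 4) for 72 genes, with SE bars for the genes on chromosomes 3 (red) and 6 (yellow). Those 3 genes lie at 0.40 to 0.55 in mESC and 0.57 to 0.62 in AntNPC, while the other 69 stay at 0.24 or below in AntNPC, and 3 of them, Rpl24, Rpl29 and Rpl31, reach 0.42 to 0.58 in mESC.

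**Figure D5:**
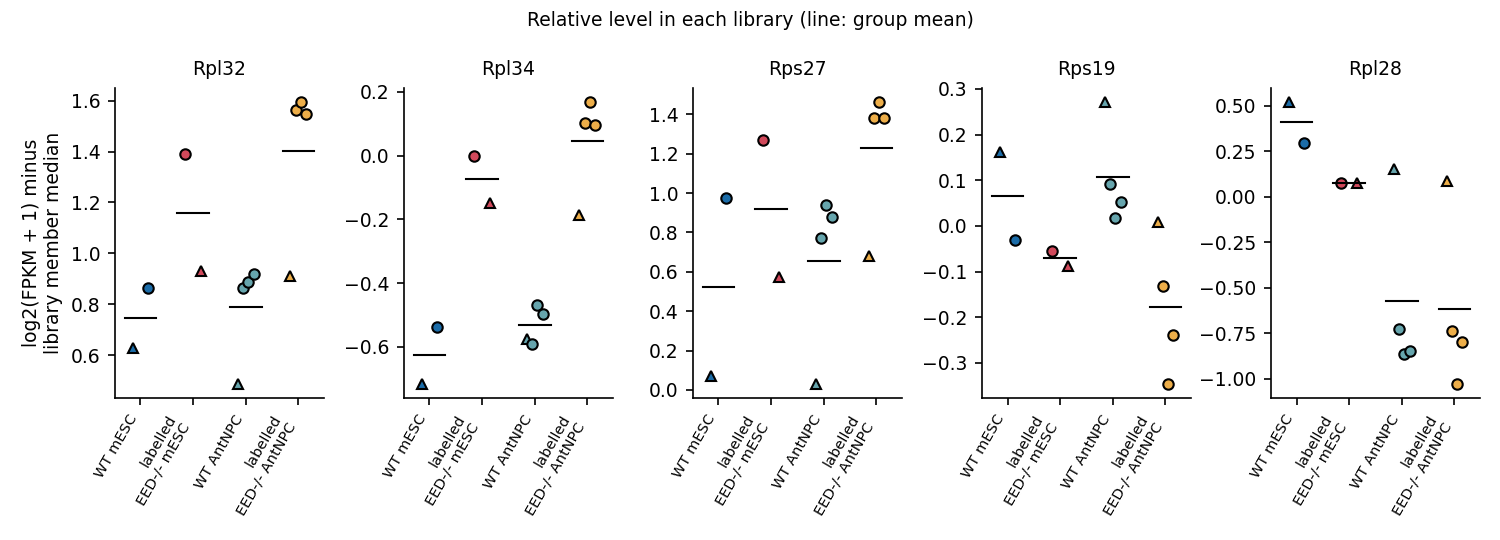
Relative level, log2(FPKM + 1) minus the library's ribosomal protein median, of 5 genes in each of 12 libraries, with lines at group means; triangles are the 4 libraries of high Rps2-ps6 and circles the other 8. Rpl34 does not overlap between genotypes in either cell type, and Rpl28 is lowest in AntNPC replicates 2 to 4, at -0.73 to -1.03.

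From mESC to AntNPC in WT, 1 of the 74 genes passed: Rpl28, a 60S protein, fell by 1.48 ± 0.53 (SE, n = 2 and 4, limma adjusted p = 0.0388), and it also fell relative to the others, by 0.98 ± 0.29 (0.0414). On the FPKM scale 30.1% of all genes rose and 18.1% fell, and on the relative scale 5.41% and 1.95%. Rpl28 gave 1406 and 4405 FPKM in WT mESC, and 1014, 823, 898 and 845 in WT AntNPC. The groups do not overlap on the FPKM scale, and AntNPC replicate 1 is the highest of its group. With the replicate block the call was lost on both scales (limma adjusted p = 0.151 and 0.190), and on the FPKM scale it was lost without any 1 of the AntNPC libraries (0.0512 to 0.0781). In libraries labelled EED-/- Rpl28 gave 2705 and 721 FPKM in mESC and 745, 784, 668 and 730 in AntNPC, a difference of -0.93 ± 0.53 that did not pass. None of the 74 passed limma's test there, beside 14.4% and 16.7% of all genes, nor on the relative scale, beside 0.102% and 0.497%. An unadjusted p under 0.05 was given by 0 of them on the FPKM scale and 3 on the relative scale. The share of all genes at that unadjusted threshold is not given here.

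The median over the 74 from mESC to AntNPC was -0.55 in WT and -0.24 in libraries labelled EED-/-, against 0.17 for all genes in the first. Both rest on single mESC libraries: the first became 0.39 without WT mESC replicate 2, and -1.56 without replicate 1. The second became 0.73 without mESC labelled EED-/- replicate 1 and -1.23 without replicate 2. Rps3, a small subunit protein at the mRNA entry site that also acts in DNA repair, had relative differences of 0.57 ± 0.25 in WT and 0.55 ± 0.25 in libraries labelled EED-/-. Rplp2, the partner of Rplp1 in the stalk, had -0.49 ± 0.22 and -0.60 ± 0.22. Rps3 lay at -0.74 to -0.64 in the 4 mESC libraries and replicate 1 of the AntNPC groups was at -0.66 in WT and -0.58 in the group labelled EED-/-, while AntNPC replicates 2 to 4 were at -0.04 to 0.05. Neither gene passed, and both were singled out after their values were seen.

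Described by role, the groups had similar medians, and no difference between them was tested. The stalk genes Rplp0, Rplp1 and Rplp2 had a median difference of -0.26 in AntNPC and -0.42 in mESC between genotypes. Rpl5 and Rpl11, which carry 5S rRNA and bind MDM2 when free, were at -0.19 to -0.20 in AntNPC. The 4 X-linked genes Rps4x, Rpl10, Rpl36a and Rpl39 had a median of -0.29, and Rps4x gave 1087, 1536, 1886 and 1774 FPKM in WT AntNPC against 808, 1369, 1405 and 1299. Its groups overlap, at -0.37 on the log2 scale, and with replicates 2 to 4 alone it fell by 0.35 (limma adjusted p = 0.0114). The 20 genes of Diamond-Blackfan anaemia had a median of -0.19, the 6 genes of mouse patterning and pigment mutants -0.21, the 8 of the exit tunnel -0.23 and the 5 of mRNA entry and decoding -0.26. The small subunit had -0.22 over 29 genes and the large subunit -0.20 over 45. None of these groups held a gene that passed in AntNPC or in mESC between genotypes on the FPKM scale. Rps6, the substrate of S6 kinase in the 40S, gave 970, 1130, 1322 and 1246 FPKM in WT AntNPC against 712, 1143, 1128 and 1073. Small subunit genes made up 42.3% to 46.4% of the summed ribosomal protein FPKM in all 12 libraries.

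Of 12 ribosomal protein genes and paralogs outside the symbol rule, 2 rose and 1 fell between genotypes in AntNPC, close to the 18.3% and 7.75% of all genes. Rpl10l and Rpl39l, autosomal paralogs of the X-linked Rpl10 and Rpl39 known from male germ cells, were highest in mESC. Rpl10l gave 52.5 and 125 FPKM in WT mESC and 33.3 and 38.2 in those labelled EED-/-. Its AntNPC values were 0.149 to 0.287 FPKM for WT and 1.84 to 6.09 for the label EED-/-. Rpl39l gave 41.4 and 111, 27.7 and 17.2, 0.0952 to 0.179, and 0.959 to 1.70 in the same order. The AntNPC genotypes did not overlap, and levels in mESC were higher than in AntNPC in every library. Rpl10l fell by 6.08 ± 0.37 from mESC to AntNPC in WT and by 3.18 ± 0.37 in libraries labelled EED-/- (limma adjusted p = 4.03e-07 and 9.73e-05). Rpl39l fell by 5.93 ± 0.33 and 3.29 ± 0.33 (limma adjusted p = 2.31e-07 and 3.38e-05). Between genotypes, Rpl10l rose by 1.74 ± 0.30 in AntNPC (limma adjusted p = 0.00138) and Rpl39l by 1.06 ± 0.27 (0.0126). In mESC Rpl39l fell by 1.59 ± 0.38 (limma adjusted p = 0.0116) and Rpl10l was at -1.16 ± 0.43 (0.0780). Pluripotency markers were also higher in AntNPC labelled EED-/- than in WT AntNPC, and their part in these values was not tested. The parents Rpl10 (-0.23) and Rpl39 (-0.20) did not pass in AntNPC.

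Rpl22l1, the paralog that Rpl22 holds down in other cells and which lies on chromosome 3, fell between genotypes in AntNPC by 0.69 ± 0.18 (limma adjusted p = 0.0143; 0.0588 with the replicate block over all libraries). It gave 239, 250, 271 and 277 FPKM in WT AntNPC and 127, 172, 188 and 159 in AntNPC labelled EED-/-, with no overlap. It thus went the other way from Rpl34 and Rps27 on the same chromosome. Rps3a1, also on chromosome 3, was at 0.45 ± 0.20 relative to the ribosomal protein median (limma adjusted p = 0.396). Rpsa, Fau and Gnb2l1, on other chromosomes, were at 0.14, -0.13 and -0.11. None of these 4 passed.

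Genes that make or regulate ribosomes were counted next, beside 18.3% of all genes that rose and 7.75% that fell between genotypes in AntNPC. The counts of each list lay under these shares, apart from the 2 falls among regulators, which lay slightly above. Of 50 ribosome assembly factors, 1 rose between genotypes in AntNPC, Nob1 (0.65 ± 0.15), which cuts the 18S rRNA precursor, and 0 fell. Of 15 RNA polymerase I genes 1 rose, Polr1a (1.39 ± 0.14), the largest subunit, and 0 fell. Of 20 translation factors with TOP starts 1 fell, Nap1l1 (-0.56 ± 0.15), a histone chaperone. Of 20 regulators of ribosomal protein output 3 rose and 2 fell, among them Eif4ebp1 (1.48 ± 0.35), the mTOR target that blocks cap binding, Rps6kb1 (0.60 ± 0.15), the S6 kinase, Mycl (-1.24 ± 0.17), a MYC family member, and Trp53 (-1.46 ± 0.26), which free Rpl5 and Rpl11 stabilise. Of 75 mitochondrial ribosomal protein genes 6 rose, among them Mrpl19 (1.41 ± 0.17) and Mrpl53 (1.28 ± 0.16), and 0 fell. Of 39 small respiratory subunits, chosen as other short abundant transcripts, none passed in AntNPC between genotypes, but 13 fell from mESC to AntNPC in WT at a median of -0.82, beside 18.1% of all genes. The medians between genotypes in AntNPC were 0.02 for assembly factors, -0.13 for RNA polymerase I, -0.28 for TOP factors, -0.10 for regulators, 0.00 for mitochondrial ribosomal proteins and 0.10 for respiratory subunits. These counts take no account of chromosome. As given above, other genes with a mean above 5 FPKM had medians of 0.51, 0.57 and 0.40 on chromosomes 3, 6 and 8. On the remaining chromosomes their median was -0.06. Whether the rises named in these lists go with their chromosomes was not tested.

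The authors' deposited table also gives mean read counts for the AntNPC groups. In the authors' deposited table the ratio of libraries labelled EED-/- to WT had a median of 0.754 over the 74 genes and 0.924 over 12020 genes with a mean count of 100 or more. Only 4 of the 74 ratios in the authors' deposited table were above 1, among them those of Rpl32 (1.22), Rpl34 (1.13) and Rps27 (1.07), and the lowest was 0.600. The authors' deposited p-value was under 0.05 for 66 of the 74 genes with a ratio below 1 and for 1 above it, Rpl32, beside 40.7% and 28.1% of the 12020 genes. No source used here says whether that p-value is adjusted, or which libraries it and the mean read counts cover.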

How the data were processed

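RNA sequencing gave 12 libraries in 4 groups. The FPKM values were made by the authors with TopHat2 and Cufflinks, and FastQC and SAMtools are also named, per the submitters' processing notes, which give no versions; FPKM is the unit recognised from the values and these tools. The deposited table for AntNPC also holds the authors' mean read counts, used as signal, and the authors' p-value per gene; DESeq2 is named for 8 of the 12 libraries per the submitters' processing notes. No library totals were used, so depth is unknown; steps among low values gave a relative depth of 0.66 to 1.07. All per-sample columns were used.

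Differences were tested with limma 3.58.1 in R 4.3.3 on log2(FPKM + 1), over 13678 genes at 1 FPKM or more in at least 2 libraries, in 1 model of 4 group means over 12 libraries (8 residual degrees of freedom). Adjusted p-values are Benjamini-Hochberg over all genes tested, with a threshold of 0.05. A fold change on this scale understates low genes. Relative values subtract the library's median over the 73 ribosomal protein genes without a 0. Coordinates are from GENCODE M21 on GRCm38. The fit was tested on simulated data with independent noise for each gene. That simulation holds no step shared by genes between libraries, so it does not show how the test behaves under one.

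Genes named are those listed at 0, the 5 highest and 3 lowest medians, up to 4 per direction that passed in each comparison, fixed genes by role, and up to 2 per direction of each other list; others are said to be singled out later. Some genes that enter the counts are not reported here by name. The members and lists were chosen with earlier results of these data known. In AntNPC, deviations of same-numbered libraries correlated at r of 0.56, 0.32, 0.42 and 0.33, but differently numbered libraries among replicates 2 to 4 correlated as well, at 0.33 to 0.40, and replicate 1 with them at -0.48 to -0.43. The values thus separate replicate 1 from the rest and do not identify pairs, and no label states a shared culture; fits with the replicate block are given where they change a call. Alternatives changed the pseudocount, filter, scaling, normalization, block and libraries.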

Additional observations from a re-analysis of the deposited data

Results flagged for a closer look

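In AntNPC labelled EED-/-, replicate 1 stood apart from the other 3 libraries. The gap between the outlying library and its nearest neighbour, divided by the range of the group, was 0.904 for the share of summed FPKM held by the 74 genes, above Dixon's 95% critical value for 4 samples. The same ratio was 0.951 for Rpl5, 0.885 for Rpl22, 0.884 for Rpl41, 0.863 for Rplp1, 0.854 for Rpl13a, 0.852 for Rpl32, 0.838 for Rps6, 0.833 for Rplp2 and 0.832 for Rpl11, with replicate 1 the lowest in each. In WT AntNPC replicate 1 stood apart at 0.894 for Rplp2, where it was the lowest, and at 0.832 for Rpl24, where it was the highest. These are 12 of 54 groups examined, 27 measures in each AntNPC group. Chance alone gives about 1 such group in 20, and the genes share their libraries.

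The genotype effect differed between AntNPC and mESC for 2 paralogs. The difference of the effects, AntNPC minus mESC, was 2.904 on the log2 scale for Rpl10l (limma adjusted p = 0.00416) and 2.642 for Rpl39l (limma adjusted p = 0.00351). The cause was not tested.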

How the results depend on the processing

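Counts below are of the 74 genes that changed. Where no share of all genes stands beside a count, it is not read as a result about these genes. On the FPKM scale, quantile normalization gave 1 between genotypes in AntNPC, 2 in mESC, and 1 from mESC to AntNPC in libraries labelled EED-/-. Rpl28, the single call from mESC to AntNPC in WT, was lost (0 called) with no filter, with the replicate block and with only the 2 groups. Without the replicate 1 libraries, which leaves 1 mESC library per genotype assumed to vary like the other groups, counts were 27 and 74 between genotypes in AntNPC and mESC, 74 and 72 from mESC to AntNPC in WT and in libraries labelled EED-/-, and 74 for the interaction, and medians were -2.525 between genotypes in mESC, -1.368 and 0.953 between cell types. In this setting 70.3%, 81.7%, 84.1%, 68.3% and 78.1% of all genes were called, in the same order. It sets WT mESC replicate 2 (low Rps2-ps6) against replicate 2 labelled EED-/- (high Rps2-ps6), while the like pairs gave medians of -0.59 and -0.50. AntNPC replicates 2 to 4 alone, and the 8 AntNPC libraries with the replicate block, gave 26 each; these 2 settings and the crossed pairing were chosen after seeing the data.

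On the relative scale, the count between genotypes in AntNPC was 2 with pseudocount 0.1, with quantile normalization and with the replicate block, 3 with no filter, 4 with only the 2 groups, 20 without the replicate 1 libraries and with replicates 2 to 4 alone, and 10 for AntNPC with the replicate block. Between genotypes in mESC it was 1 with quantile normalization and 55 without the replicate 1 libraries. From mESC to AntNPC it was 2 with quantile normalization, 0 with the replicate block and 47 without the replicate 1 libraries in WT, and in libraries labelled EED-/- 1 with no filter, quantile normalization, the replicate block and only the 2 groups, and 44 without the replicate 1 libraries. Without the replicate 1 libraries 61.3%, 99.2%, 90.8% and 88.2% of all genes were called on this scale. In mESC same-numbered libraries correlated at -0.67, and with the mESC numbers labelled EED-/- crossed the block gave 7 from mESC to AntNPC in WT on the FPKM scale, and 6, 6 and 9 on the relative scale between genotypes in AntNPC and mESC and from mESC to AntNPC in WT.

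Some directions reversed. Without the replicate 1 libraries Rps27 was at -0.4023 relative in mESC and Rpl22l1 at 0.4015 from mESC to AntNPC labelled EED-/-, and Rpl22 was at 0.2987 relative in AntNPC there and with replicates 2 to 4 alone. Scaled to a common sum, the median from mESC to AntNPC labelled EED-/- was 0.02. Leaving out 1 library gave 0 to 2 calls in mESC, 0 to 16 and 0 to 1 from mESC to AntNPC in WT and in libraries labelled EED-/-, and on the relative scale 0 to 3 in AntNPC, 0 to 1 in mESC, 0 to 2 in WT and 0 to 1 in libraries labelled EED-/- between cell types. Medians ran from -1.525 to 0.4481 in mESC, -1.562 to 0.3871 in WT and -1.226 to 0.7261 in libraries labelled EED-/-. The cause was not tested.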
